A study of Mus musculus with 32 samples.

Results

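The mouse genes whose products are the nuclear-encoded subunits of the respiratory chain were taken from the scRNA-seq counts of cultured marrow stromal cells. Members were chosen by symbol, namely those that start with Ndufa, Ndufb, Ndufc, Ndufs, Ndufv, Uqcr, Cox4, Cox5, Cox6, Cox7, Cox8 or Atp5, together with Sdha, Sdhb, Sdhc and Sdhd, without pseudogenes carrying the ending -ps and without the Ndufaf assembly factors. This gave 85 gene rows (84 symbols, since Atp5o has a second identifier) of the 31053 in the count matrices. They comprised 36 genes of complex I, 4 of complex II, 8 of complex III, 18 of complex IV, 17 of complex V and, set apart, the isoform genes Ndufa4l2 and Cox4i2, spread over 19 chromosomes. A total of 78 members had enough counts to be tested in each of 6 comparisons. Cox6b2 and Atp5s were tested in 5, Cox6a2 in 4 and Cox8b in 1, and Cox7b2, Cox8c and the second Atp5o identifier in none.

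The cells were bone marrow-derived stromal cells from the femurs of Diversity Outbred (DO) mice, an outbred population bred from several inbred founder strains, grown under osteogenic conditions (BMSC-OBs). The data held 16 pools, numbered 1 to 14, 17 and 18 and containing cells of 4 or 5 mice each (77 mice in all). The labels give no treated, mutant or untreated group, and the ages of the mice were not given in the sources used here. Because mice were mixed within a pool and cells were not assigned to mice here, the pool was the replicate. The p-values weigh the difference between classes within pools against its variation from pool to pool, and do not measure the spread between mice. Each pool was sequenced in 2 runs that held 98.2% of their barcodes in common, so that only run HGYVNCCX2 entered the counts.

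The respiratory chain passes electrons from NADH (complex I) and succinate (complex II) through complex III to oxygen at complex IV, and the proton gradient built on the way drives ATP synthase, here complex V. Complex II is wholly nuclear-encoded, whereas the other complexes combine nuclear-encoded subunits with a few made from mitochondrial DNA. Several complex IV subunits exist as isoforms with a restricted distribution, such as the heart and muscle isoforms Cox6a2, Cox7a1 and Cox8b and the testis isoform Cox6b2, and Ndufa4l2 and Cox4i2 are known as genes that low oxygen induces in place of, or beside, Ndufa4 and Cox4i1. In bone, osteoclasts are known for their many mitochondria.

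Of 107853 barcodes, 88909 (82.4%) were kept, with 53990642 to 100777353 UMIs per pool and a median of 2782 (pool 13) to 15273 (pool 5) UMIs per kept cell. Cells were gated on marker genes into 12989 late mesenchymal progenitor (LMP)-like, 8665 marrow adipogenic lineage progenitor (MALP)-like, 12446 osteoblast-like, 7382 osteocyte-like (Ocy-like), 10701 macrophage-like and 336 osteoclast-like cells. Osteoblast-like cells were further divided on a score of 8 hypoxia genes that are not members (Ero1l, Ndrg1, Bnip3, Egln3, Fam162a, P4ha2, Adm and Ankrd37) into 3735 hypoxia-high and 4866 hypoxia-low cells, leaving 3845 between them. The gate gives each cell the class with its highest marker score, so the order of the scores does not test the gates. Ocy-like cells had a median score of 0.596 on the osteoblast markers, against 1.449 on their own. Macrophage-like cells had a median score of 0.547 on the monocyte markers, against 1.759 on their own. The gates are ranges of a score and not natural borders, and 33.6% of kept cells stayed ungated. In the 8 classes just named, 4.46% (osteoclast-like) to 24.7% (hypoxia-high) of cells lay within 0.1 of a limit on the class score or its lead. These percentages do not cover the limits on the hypoxia score, within 0.1 of which 2500 osteoblast-like cells lay. Another 2822 cells that met both a stromal and a blood class were left out as mixed. Of the gated cells, 0.749% carried at least 2 Xist and at least 2 Y-chromosome UMIs, the sign of a doublet between mice of different sex. Cells with fewer UMIs of either kind were not counted. In addition, 1521 barcodes (1.43%) occurred in more than 1 pool. Pools 1 and 2 stood apart from the others, with 11 and 2 hypoxia-high cells. Counts of called members without them are given for the comparisons with LMP-like cells.

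The 250 bases upstream of the RefSeq start site (build GRCm38.p6) are shown for the 4 members that changed by more than 1 on the log2 scale in the hypoxia or the Ocy-like comparison and have an entry in the promoter table, namely Ndufa4 (chr6:11907451-11907700, minus strand), Ndufv3 (chr17:31519865-31520114, plus strand), Cox7a1 (chr7:30183921-30184170, plus strand) and Cox8b (chr7:140900447-140900696, minus strand). Sequences are written 5′ to 3′ on the strand of the gene, and capitals mark a match to one of the 5 short motifs searched. Ndufa4l2 and Cox4i2 are named only.
Ndufa4: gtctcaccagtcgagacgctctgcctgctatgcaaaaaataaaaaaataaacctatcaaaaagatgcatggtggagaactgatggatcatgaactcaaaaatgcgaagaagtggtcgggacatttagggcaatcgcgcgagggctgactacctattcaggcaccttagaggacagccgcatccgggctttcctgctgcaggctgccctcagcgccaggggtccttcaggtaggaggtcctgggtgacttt
Ndufv3: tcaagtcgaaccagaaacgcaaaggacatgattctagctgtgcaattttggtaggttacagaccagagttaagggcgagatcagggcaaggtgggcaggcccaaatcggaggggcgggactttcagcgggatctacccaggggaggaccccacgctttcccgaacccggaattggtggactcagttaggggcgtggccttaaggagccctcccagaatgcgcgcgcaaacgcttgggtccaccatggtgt
Cox7a1: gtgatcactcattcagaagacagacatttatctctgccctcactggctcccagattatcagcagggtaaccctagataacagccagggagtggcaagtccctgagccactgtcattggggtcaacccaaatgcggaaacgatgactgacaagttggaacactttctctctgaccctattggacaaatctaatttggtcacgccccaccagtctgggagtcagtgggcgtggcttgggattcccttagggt
Cox8b: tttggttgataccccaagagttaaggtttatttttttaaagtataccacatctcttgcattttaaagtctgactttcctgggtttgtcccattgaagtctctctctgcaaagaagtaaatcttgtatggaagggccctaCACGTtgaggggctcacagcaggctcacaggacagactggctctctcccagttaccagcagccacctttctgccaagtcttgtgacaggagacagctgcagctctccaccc

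The search covered both strands from 250 bases before to 50 bases after the start site, for 69 members and 17492 protein-coding genes in the table. The letters CCGGAAG, which fit the core of ETS and GABP sites, were present in 23.2% of member promoters and 12.9% of all. TGCGCA, part of the nuclear respiratory factor 1 site, was present in 26.1% and 11.0%, AAGATGG of the YY1 site in 15.9% and 7.18%, and AAGGTCA of the estrogen-related receptor site in 11.6% and 4.73%. In contrast, ACGTG, the core of the hypoxia response element, was found in 26.1% of member promoters and 23.2% of all. It was matched in Cox8b, as its reverse complement CACGT 111 bases before the start site, and in the windows printed for Ndufa4, Ndufv3 and Cox7a1 none of the 5 motifs was found. None of the 5 motifs contains another, although CCGGAAG can share its last letters with AAGATGG or AAGGTCA, and CACGTG holds ACGTG on both strands. Matches of this kind are descriptions of letters and not of bound sites.

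As a share of all UMIs, the members took up more of the transcriptome in osteoclast-like cells than in any other class. The members together held 2.58% ± 0.222 (SD, n = 16 pools) of UMIs in LMP-like cells, 2.78% ± 0.246 in MALP-like cells, 2.32% ± 0.200 in osteoblast-like cells and 2.23% ± 0.219 in Ocy-like cells. Macrophage-like cells were lower at 2.06% ± 0.181 (n = 16), granulocyte-like cells at 1.70% ± 0.161 (n = 12) and B-cell-like cells at 1.13% ± 0.149 (n = 5), whereas T-cell-like cells held 2.40% ± 0.172 (n = 4). In osteoclast-like cells the share was 4.30% ± 0.381 (n = 4), from 3.74% in pool 13 to 4.58% in pool 9. The differences recurred within pools. The share was lower in osteoblast-like than in LMP-like cells in 16 of 16 pools, higher in MALP-like than in LMP-like cells in 16 of 16, lower in macrophage-like than in LMP-like cells in 16 of 16 and higher in osteoclast-like than in macrophage-like cells in 4 of 4. Ocy-like cells were higher than osteoblast-like cells in 2 of 16 pools, with a mean difference of -0.0821 percentage points (no test was made on sums over members).

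**Figure D1:**
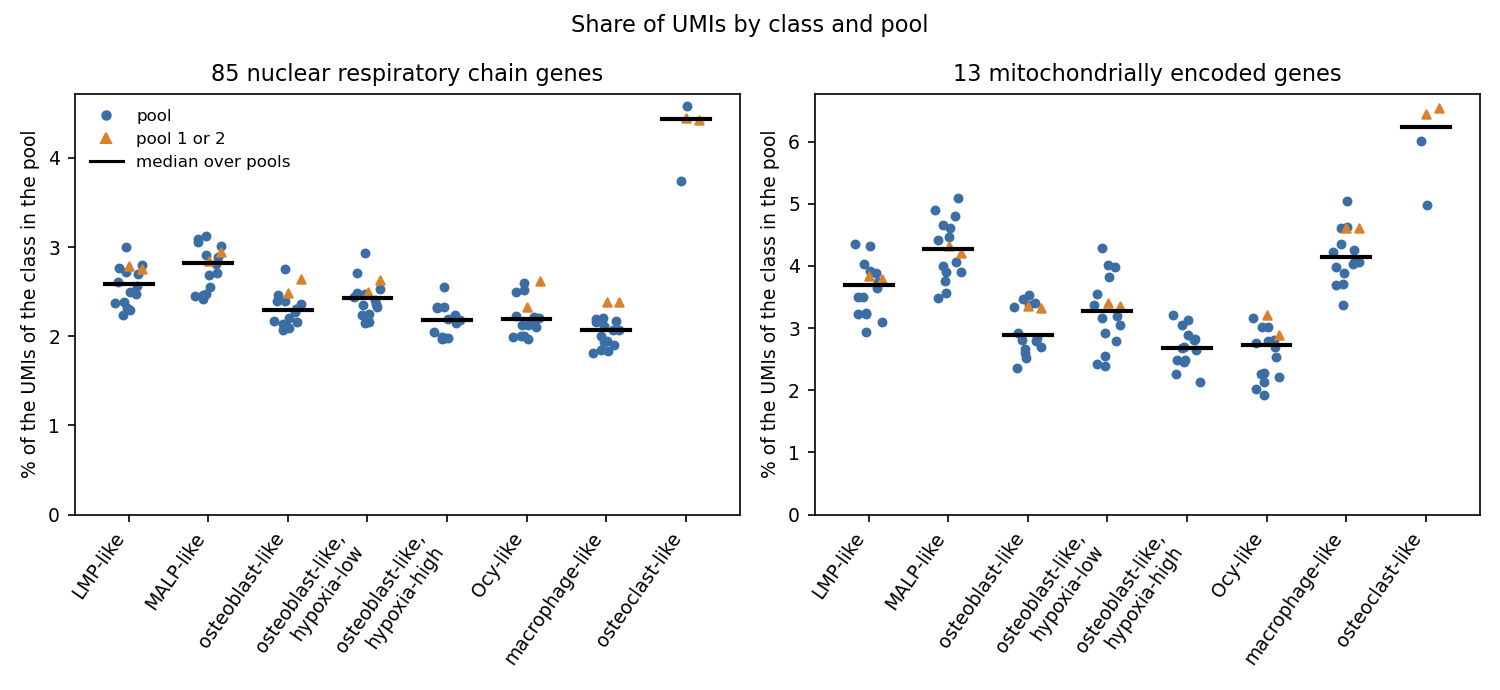
Share of UMIs (%) held by the nuclear-encoded members and, beside it, by the 13 mitochondrially encoded genes, per cell class, with a point for each pool, a black bar for the median and orange triangles for pools 1 and 2. Osteoclast-like cells have the highest median in both, and lie between 3.74% and 4.58% for the members, while the share of the members in macrophage-like cells is the lowest of the stromal, macrophage and osteoclast classes.

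The complexes largely moved together. Complex I held 0.782% ± 0.0861 of UMIs in LMP-like cells and 0.700% ± 0.0689 in osteoblast-like cells, and complex V held 0.733% ± 0.0636 and 0.641% ± 0.0642 (SD, n = 16). The small complex II held 0.0410% ± 0.00548 and 0.0312% ± 0.00464. The exceptions were the 2 isoform genes set apart, whose summed share was higher in osteoblast-like than in LMP-like cells in 15 of 16 pools (0.105% ± 0.0360 against 0.0754% ± 0.0339) and lower in MALP-like cells in 16 of 16 (0.0269% ± 0.0148). Complex II was also the only complex that was not lower in macrophage-like than in LMP-like cells, being higher in 10 of 16 pools (0.0415% ± 0.00334).

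The share of mitochondrially encoded UMIs differed between classes in part along with the nuclear-encoded share. It was 3.64% ± 0.422 in LMP-like, 4.26% ± 0.479 in MALP-like, 3.00% ± 0.387 in osteoblast-like, 2.61% ± 0.420 in Ocy-like and 6.00% ± 0.712 in osteoclast-like cells. Macrophage-like cells departed from this, since their mitochondrial share (4.20% ± 0.434) was above that of LMP-like cells in 15 of 16 pools while their nuclear-encoded share was below it. Accordingly there were 0.497 ± 0.0723 member UMIs per mitochondrial UMI in macrophage-like cells and 0.721 ± 0.130 in LMP-like cells, with the former lower in 16 of 16 pools. Cells above 10% mitochondrial UMIs had been removed, which truncates this share. Of the barcodes removed, 9542 failed on this limit alone.

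In the comparisons that follow, a level is a UMI count in CPM, scaled to the same total of UMIs in each class of each pool, and a fold change is log2 with its SE from edgeR after TMM scaling, tested over all genes with the pool as a block by the quasi-likelihood test with Benjamini-Hochberg adjustment, a gene being called at an adjusted p of at most 0.05. TMM expresses change relative to the typical gene, so a member can rise relative to the typical gene while its share of UMIs falls. TMM moved all log2 fold changes by 0.39 in osteoblast-like against LMP-like cells, by 0.17 in hypoxia-high against hypoxia-low cells, by -0.23 in MALP-like against LMP-like cells, by 0.15 in macrophage-like against LMP-like cells, and by -0.03 and -0.05 in the other two comparisons. Counts of pools and statements on overlap use the TMM-scaled levels. The counts come from the 3′ ends of transcripts and are not scaled for length. Levels are compared between classes, and between genes only as the share of UMIs within a pair of isoform genes. The gates and the tests used the same cells, and several comparisons share a class (LMP-like, osteoblast-like or macrophage-like cells), so they are not independent of each other.

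Hypoxia-high and hypoxia-low osteoblast-like cells were compared in 14 pools. The classes were cut on hypoxia genes, so the rise of other genes that low oxygen induces, such as Ndufa4l2 and Cox4i2, follows in part from the gate. For such genes the p-values are no independent test. Most called members were lower in the hypoxia-high cells, while 4 members, among them Ndufa4l2 and Cox4i2, rose by more than 1 on the log2 scale. Of 80 members tested, 14 were higher (17.5% against 26.7% of all 10509 genes tested) and 43 were lower (53.8% against 27.5%), beside 54.2% of all genes called in either direction, with a median log2 fold change of -0.13 against -0.01 for all genes. On shares of UMIs without TMM the split was 7 higher and 64 lower. The members together held 2.18% ± 0.173 of UMIs in hypoxia-high and 2.42% ± 0.212 in hypoxia-low cells, lower in 14 of 14 pools, while Ndufa4l2 and Cox4i2 summed to 0.164% ± 0.0156 and 0.0453% ± 0.0169, higher in 14 of 14. The mitochondrially encoded share was 2.70% ± 0.315 against 3.25% ± 0.615 and was higher in hypoxia-high cells in 2 of 14 pools. The lower members came from every complex, with 22 of 36 in complex I (3 higher), 3 of 4 in complex II (0 higher), 6 of 8 in complex III (1 higher), 3 of 14 in complex IV (6 higher) and 9 of 16 in complex V (2 higher). Thus complex IV was the only complex with more members called higher than lower on the TMM scale, and its 6 higher members include Cox7a1, described below without a test. As a share of UMIs, complex IV was lower in 14 of 14 pools (0.545% ± 0.0446 against 0.616% ± 0.0567), as was each other complex. In complex IV, Cox4i1, Cox6a1, Cox7a2 and Cox8a had positive fold changes that turned negative without TMM. Of these, Cox4i1 and Cox7a2 were not called with TMM.

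Among the isoform genes, Ndufa4l2 ranged over 927 to 1678 CPM (median 1215) in hypoxia-high cells and over 190.2 to 633 CPM (median 318) in hypoxia-low cells. Every hypoxia-high pool lay above every hypoxia-low pool. The log2 fold change was 2.08 ± 0.13 (adjusted p = 3.25e-11) and the gene (chr10:127514967-127517154, plus strand, GRCm38) was higher in 14 of 14 pools. Cox4i2 (chr2:152754173-152765037, plus strand), the alternative form of the subunit 4 of cytochrome c oxidase, ranged over 212 to 583 CPM (median 394) against 45.2 to 191 CPM (median 99.1). Again there was no overlap, with a log2 fold change of 2.19 ± 0.14 (adjusted p = 4.59e-11). Cox7a1, the heart and muscle form of subunit 7a, was at 6.81 to 18.8 CPM (median 11.1) against 0.479 to 5.67 CPM (median 2.61) with a log2 fold change of 2.33 ± 0.16 from a low base. Its hypoxia-high pools also lay entirely above the hypoxia-low pools. The filter on low counts was met by 14 of 14 hypoxia-high and 9 of 14 hypoxia-low pools, so it passed only through the class where it was high and is described without a test, although the counts of higher and of non-overlapping members include it.

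Ndufv3, an accessory subunit of the NADH-binding part of complex I that was named after its values were seen, was the fourth member without overlap. It ranged over 343 to 565 CPM (median 415) in hypoxia-high and 165 to 280.2 CPM (median 203) in hypoxia-low cells, a log2 fold change of 1.17 ± 0.06 (adjusted p = 2.10e-12), higher in 14 of 14 pools. The 4 genes make up 5% of the members tested, beside 3.36% of all genes tested whose pools did not overlap. In the opposite direction, Ndufa4 ranged over 133 to 279 CPM (median 179) in hypoxia-high cells and over 279.8 to 531 CPM (median 426) in hypoxia-low cells. Ndufa4, long assigned to complex I and now placed in complex IV, fell in 14 of 14 pools, with a log2 fold change of -1.02 ± 0.06 (adjusted p = 1.48e-11), and its highest hypoxia-high pool was level with its lowest hypoxia-low pool. Sdhb, the iron-sulfur subunit of complex II, was at 53.8 to 117 CPM (median 61.4) against 83.6 to 183 CPM (median 120.4), a log2 fold change of -0.71 ± 0.07 (adjusted p = 1.28e-08). Ndufa12, an accessory subunit of the peripheral arm of complex I, changed by -0.49 ± 0.05 (adjusted p = 1.88e-07) and was lower in 14 of 14 pools.

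Smaller differences set the members of the isoform families apart. Atp5g1, Atp5g2 and Atp5g3 encode the same c subunit of the ATP synthase ring with different import sequences. Of these, Atp5g2 rose by 0.31 ± 0.04 (adjusted p = 4.54e-07), whereas Atp5g1 changed by -0.36 ± 0.06 (adjusted p = 3.95e-05) and Atp5g3 by -0.21 ± 0.04 (adjusted p = 1.72e-04). Cox7a2l, which takes part in the joining of complexes III and IV, rose by 0.36 ± 0.05 (adjusted p = 1.12e-05), and Cox6b2 rose by 0.75 ± 0.15 (adjusted p = 2.32e-04) at 4.98 to 10.5 CPM (median 6.36) against 1.89 to 8.55 CPM (median 4.39). Cox4i1 (0.07 ± 0.04, adjusted p = 0.105), Cox7a2 (0.03 ± 0.04, adjusted p = 0.592) and Cox6b1 (adjusted p = 0.996) were not called.

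Other gene lists moved beside the members. All 19 tested targets of hypoxia-inducible factor that the gate did not use were higher, among them Pfkp, a phosphofructokinase (2.97 ± 0.13, adjusted p = 1.23e-13). The count includes Car9, a carbonic anhydrase, which passed the filter only through the hypoxia-high pools and had a log2 fold change of 4.10 ± 0.20, given without a test. Of the 13 TCA cycle enzymes 10 were lower and 0 higher, with Idh3a at -0.77 ± 0.06 (adjusted p = 1.32e-09) and Dlst at -0.68 ± 0.05 (adjusted p = 1.85e-10). Of 43 assembly factors 20 were lower and 3 higher (Ndufaf4 -1.32 ± 0.11, adjusted p = 3.69e-09, Cox10 -0.79 ± 0.14, adjusted p = 4.99e-05). The 43 include Ndufaf5 and Cox15, which passed the filter only through the hypoxia-low pools. Among 5 respiratory chain genes that the symbol pattern missed, 3 were lower, including Cycs, cytochrome c (-0.87 ± 0.07, adjusted p = 4.56e-09), and Cyc1, its partner in complex III (-0.56 ± 0.06, adjusted p = 2.24e-07). Of the 13 mitochondrially encoded genes, 6 were lower (mt-Cytb -0.58 ± 0.06, adjusted p = 1.57e-07) and 2 higher (mt-Co1 0.49 ± 0.09, adjusted p = 1.86e-04). Mitochondrial ribosomal proteins were lower for 57 of 77 genes and higher for 6, whereas cytosolic ribosomal proteins were higher for 79 of 86 and lower for 3. Median depth was 19113 UMIs in hypoxia-high and 17160 in hypoxia-low cells over all pools, with pools 1 and 2 included. Within pools it differed most in pools 13 (11538.5 against 2331), 11 (20060 against 9397) and 7 (30031 against 16592). Hypoxia-high cells were shallower in pools 5, 9, 10, 14 and 17. The part of depth in these differences was not tested.

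**Figure D2:**
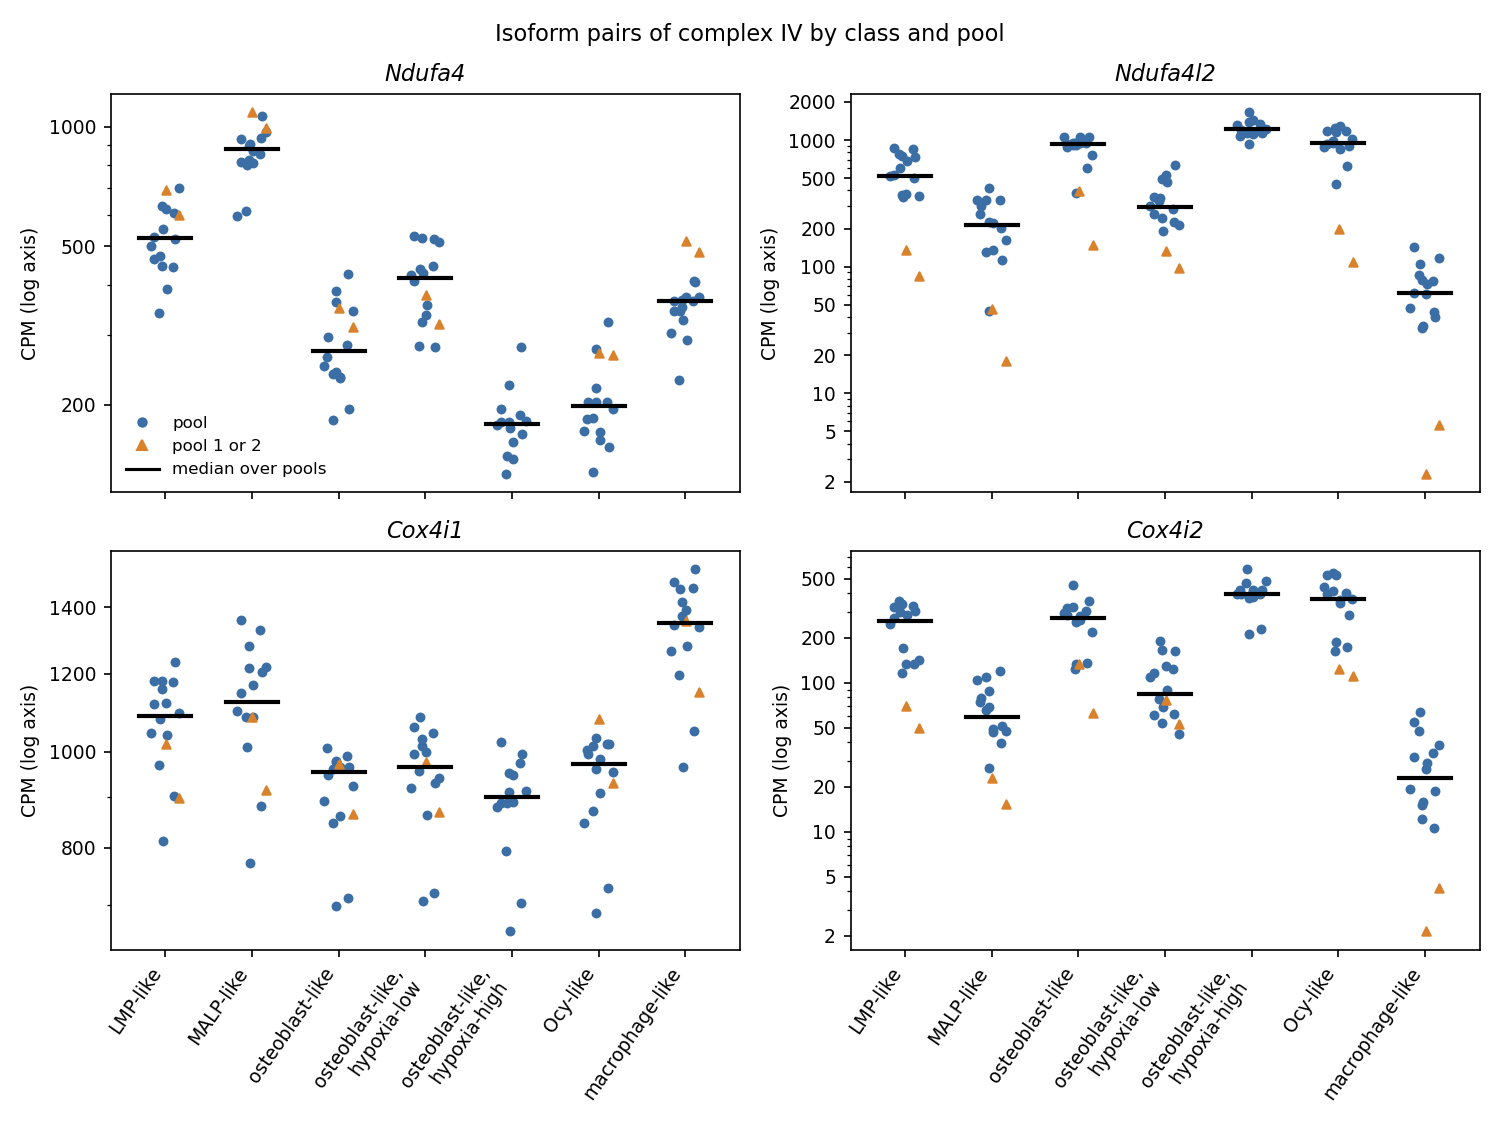
Level of Ndufa4, Ndufa4l2, Cox4i1 and Cox4i2 (CPM, log axis) per pool in each cell class, with a black bar for the median and orange triangles for pools 1 and 2. Ndufa4l2 and Cox4i2 are highest in hypoxia-high cells (medians 1215 and 394 CPM) while Ndufa4 is lowest there (179 CPM), and the orange triangles lie below the other pools for both alternative isoforms in LMP-like cells.

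Osteoblast-like cells were compared with LMP-like cells in 16 pools. The members' share of UMIs was lower in osteoblast-like cells, yet relative to the typical gene more members rose than fell. Of 81 members tested, 53 were higher (65.4% against 39.7% of all 12436 genes) and 10 lower (12.3% against 39.9%), beside 79.6% of all genes called in either direction, with a median log2 fold change of 0.15 against -0.00037 for all genes, whereas on shares of UMIs without TMM 12 were higher and 64 lower. With TMM, 23 of 36 members of complex I were higher and 4 lower, 7 of 8 in complex III and 1, 9 of 15 in complex IV and 3, and 11 of 16 in complex V and 2, and these directions turn without TMM for the members with small changes. In complex II only Sdhd, a membrane anchor named after its values were seen, was called, as higher with TMM and as lower without it. Without pools 1 and 2, 50 members were higher and 12 lower. The members counted as higher include Cox6a2, which passed the filter on low counts in only 4 comparisons, partly through classes where it was higher, and is described without a test throughout.

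Of the increases described next, those of Ndufa1, Cox6a1, Uqcrq and Ndufa4l2 were also called without TMM. Ndufa1 ranged over 127 to 341 CPM (median 213) in osteoblast-like cells and over 78.4 to 173 CPM (median 129) in LMP-like cells. Ndufa1, an X-linked accessory subunit of the membrane arm of complex I, rose by 1.17 ± 0.04 (adjusted p = 5.70e-16) in 16 of 16 pools, although the ranges overlapped. Cox6a1, the widely expressed form of subunit 6a, was at 382 to 736 CPM (median 463) against 301 to 414 CPM (median 332), and after TMM scaling its osteoblast-like pools lay above all LMP-like pools (log2 fold change 0.92 ± 0.04, adjusted p = 4.52e-14). Uqcrq, a small subunit of complex III named after its values were seen, behaved alike, with 0.80 ± 0.04 (adjusted p = 1.57e-13) and no overlap. Ndufa4l2 was at 149 to 1062 CPM (median 924) against 84.2 to 867 CPM (median 523), and rose by 1.07 ± 0.12 (adjusted p = 6.66e-08) in 16 of 16 pools. Cox4i2 rose by 0.58 ± 0.10 (adjusted p = 2.19e-05) in 15 of 16 pools, and this call was lost without TMM. Cox6a2 had a log2 fold change of 1.02 ± 0.21 at low levels, 0.207 to 4.61 CPM (median 1.94) against 0.151 to 3.36 CPM (median 0.910).

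The decreases were led by restricted isoforms of complex IV. Cox6b2 (chr7:4751792-4753094, minus strand), known from testis, was at 2.79 to 8.19 CPM (median 6.20) in osteoblast-like cells and 14.1 to 35.7 CPM (median 26.0) in LMP-like cells, with no overlap and a log2 fold change of -1.67 ± 0.13 (adjusted p = 2.78e-10). Cox7a1 was at 1.75 to 12.2 CPM (median 6.14) against 3.19 to 63.2 CPM (median 22.9) and changed by -1.59 ± 0.17 (adjusted p = 2.00e-08), with overlapping ranges, since its LMP-like level was only 4.70 and 3.19 CPM in pools 1 and 2. Ndufa4 was at 183 to 425 CPM (median 273) against 339 to 703 CPM (median 525) and changed by -0.51 ± 0.05 (adjusted p = 7.28e-09) in 16 of 16 pools. In total 3 members (Cox6a1, Uqcrq and Cox6b2) did not overlap, a share of 3.70% against 13.8% of all genes. The remaining isoform genes moved little. Cox7a2 rose by 0.48 ± 0.03 (adjusted p = 7.28e-12), and the positive fold changes of Cox4i1 (0.17 ± 0.03, adjusted p = 4.84e-05), Cox6b1 (0.15 ± 0.03, adjusted p = 1.85e-04), Cox8a (0.08 ± 0.03, adjusted p = 0.0327), Atp5g1 (0.26 ± 0.03, adjusted p = 6.49e-07), Atp5g2 (0.10 ± 0.04, adjusted p = 0.0202) and Atp5g3 (0.20 ± 0.03, adjusted p = 9.88e-07) all turned negative without TMM. Cox7a2l (0.05 ± 0.04, adjusted p = 0.312) was not called and also turned negative.

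The genes around the chain did not share one direction. Assembly factors were lower for 23 of 45 genes and higher for 12, and mitochondrial ribosomal proteins were lower for 43 of 77 and higher for 18. The TCA cycle list split evenly, with 5 of 13 in each direction (Fh1, fumarase, -1.02 ± 0.04, adjusted p = 1.15e-14). Of the hypoxia-inducible factor targets 13 of 19 were higher and 1 lower, led by P4ha1, a collagen prolyl hydroxylase (2.44 ± 0.11, adjusted p = 1.94e-14), and Higd1a (1.78 ± 0.11, adjusted p = 3.62e-12). Mitochondrially encoded genes were higher for 6 of 13 and lower for 3 on the TMM scale. The share of UMIs of cytosolic ribosomal proteins, 18.5% ± 1.84 in osteoblast-like and 23.4% ± 1.82 in LMP-like cells, was lower in osteoblast-like cells in 16 of 16 pools, and its part in the difference between both scales was not tested.

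**Figure D3:**
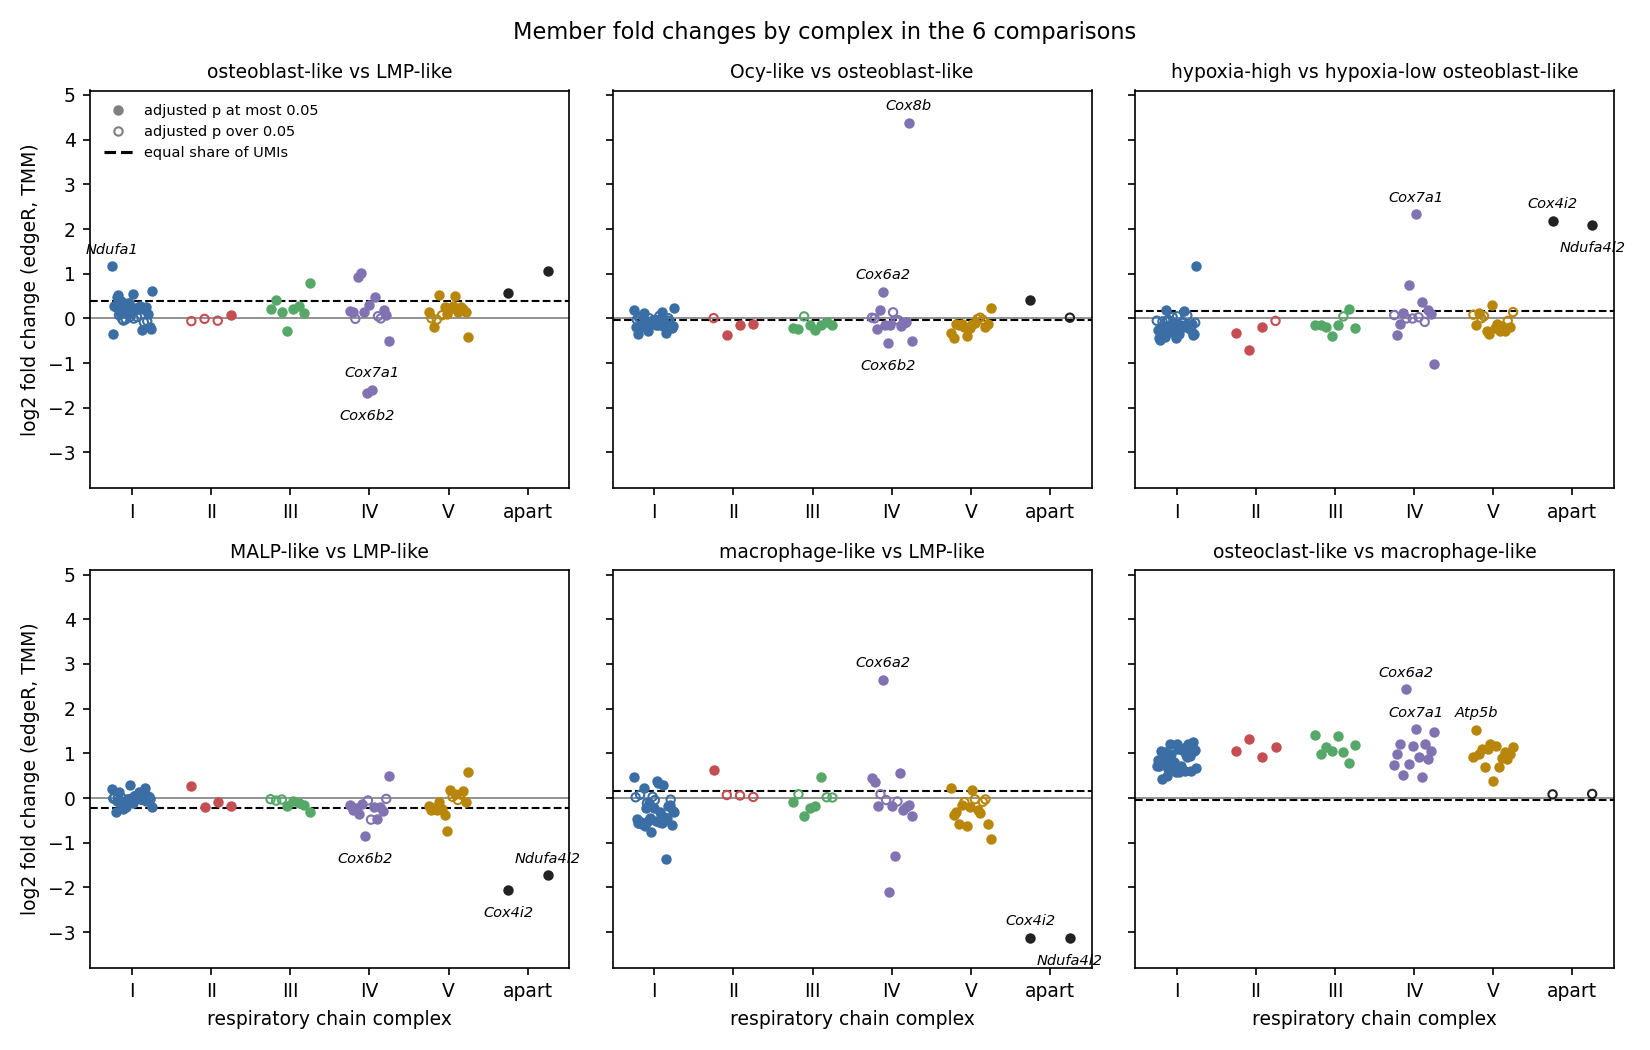
Log2 fold change of each member, grouped by complex, in the 6 comparisons, with filled points for an adjusted p of at most 0.05, a grey line at 0 and a dashed line where a gene with an equal share of UMIs in both classes would lie. In osteoclast-like against macrophage-like cells 77 of 79 members are called higher, whereas in the other comparisons members lie on both sides of the grey line.

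Ocy-like cells, the mineralized-matrix end of the osteoblast lineage, were compared with osteoblast-like cells in 16 pools. Called members were mostly lower in Ocy-like cells by small amounts, and 1 gene, Cox8b, stood far out in the other direction. Of 82 members tested, 9 were higher (11.0% against 30.5% of 11540 genes) and 48 lower (58.5% against 29.8%), beside 60.3% of all genes called in either direction, with a median log2 fold change of -0.11 against 0.01. By complex, 18 of 36 members of complex I were lower and 4 higher, 3 of 4 in complex II and 0, 7 of 8 in complex III and 0, 8 of 16 in complex IV and 3, and 12 of 16 in complex V and 1. The members counted as higher include Cox8b and Cox6a2, which had low counts and are described without a test.

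Cox8b (chr7:140898945-140900446, minus strand), the heart and muscle form of subunit 8, was at 3.49 to 32.8 CPM (median 11.2) in Ocy-like cells and at 0.0577 to 1.64 CPM (median 0.526) in osteoblast-like cells. All Ocy-like pools lay above all osteoblast-like pools, with a log2 fold change of 4.38 ± 0.15. The gene passed the filter on low counts in this comparison only, through the Ocy-like pools in which it was high, so the change is given as a description without a test. It was the only one of 82 members without overlap (1.22%), beside 1.6% of all genes. Its median was 0 CPM in LMP-like and in macrophage-like cells. Even in Ocy-like cells it made up only 1.81% of the UMIs of Cox8b and Cox8a together, against 0.0850% in osteoblast-like cells. Cox8a changed by -0.09 ± 0.02 (adjusted p = 0.00132).

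The other changes were smaller. Cox4i2 was at 111 to 542 CPM (median 363) against 62.7 to 454 CPM (median 272) and rose by 0.41 ± 0.07 (adjusted p = 3.26e-05), whereas Ndufa4l2 (0.02 ± 0.08, adjusted p = 0.879) was not called. Ndufv3 rose by 0.23 ± 0.04 (adjusted p = 5.70e-05) in 15 of 16 pools and Cox6a1 by 0.18 ± 0.03 (adjusted p = 5.55e-05). Cox6a2 had a log2 fold change of 0.60 ± 0.18. Among the decreases, Cox6b2 changed by -0.54 ± 0.10 (adjusted p = 9.71e-05), Ndufa4 by -0.50 ± 0.04 (adjusted p = 4.78e-11), in 16 of 16 pools, and Atp5b, the catalytic beta subunit of ATP synthase, by -0.43 ± 0.03 (adjusted p = 4.07e-11). Atp5b was at 267 to 470.0 CPM (median 320.2) in Ocy-like and 345 to 554 CPM (median 443) in osteoblast-like cells. Beside this, 12 of 13 TCA cycle genes, 10 of 13 mitochondrially encoded genes and all 5 respiratory chain genes missed by the pattern were lower and none was higher (Atpif1, the ATP synthase inhibitor, -0.52 ± 0.03, adjusted p = 2.85e-13; Cycs -0.50 ± 0.04, adjusted p = 7.91e-10). Cytosolic ribosomal proteins were lower for 82 of 86 genes as well. Hypoxia-inducible factor targets were split, with 7 of 19 in each direction.

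**Figure D4:**
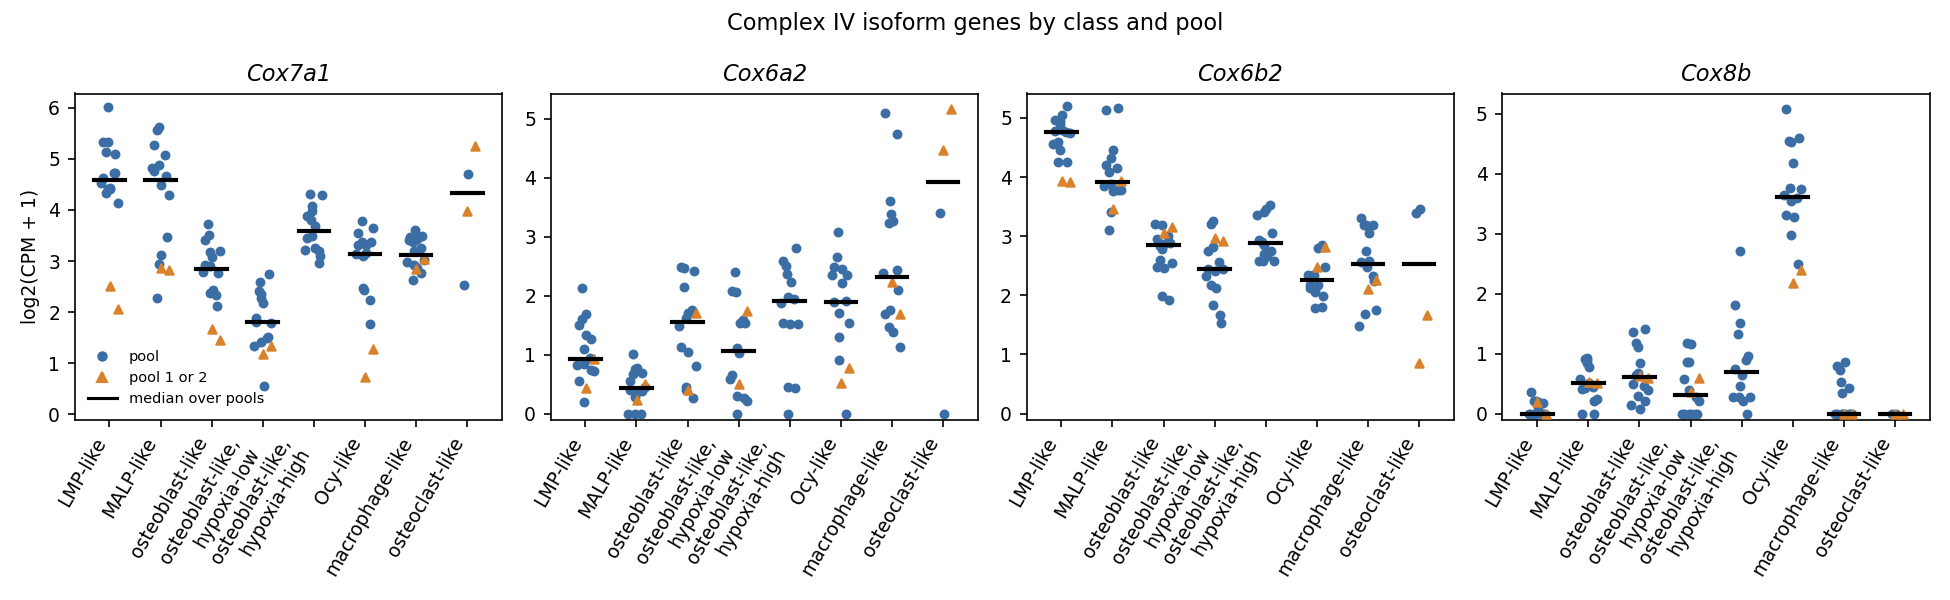
Level of the low-expressed complex IV isoforms Cox7a1, Cox6a2, Cox6b2 and Cox8b, as log2(CPM + 1), per pool and cell class, with a black bar for the median and orange triangles for pools 1 and 2. Cox8b has its highest median in Ocy-like cells (11.2 CPM), Cox6b2 is higher in LMP-like cells (median 26.0 CPM) than in the other stromal classes and Cox6a2 has its highest median in osteoclast-like cells (15.4 CPM, with 1 pool at 0).

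MALP-like cells, the adipogenic arm of the marrow stroma, were compared with LMP-like cells in 16 pools. Their share of member UMIs was higher in every pool, while relative to the typical gene more members fell than rose. Of 80 members tested, 12 were higher (15% against 39.1% of 12093 genes) and 40 lower (50% against 35.4%), beside 74.5% of all genes called in either direction, with a median log2 fold change of -0.08 against 0.03. Leaving out pools 1 and 2 gave 11 higher and 42 lower with TMM. On shares of UMIs without TMM, 53 were higher and 9 lower. With TMM, complex I had 6 higher and 11 lower of 36, complex II 1 and 3 of 4, complex III 0 and 5 of 8, complex IV 1 and 10 of 14 and complex V 4 and 9 of 16. The share of cytosolic ribosomal proteins was 15.7% ± 1.95 against 23.4% ± 1.82 and was lower in MALP-like cells in 16 of 16 pools, and its part in the difference between scales was not tested. Median depth over all pools was 8752 UMIs in MALP-like and 16695 in LMP-like cells, and its part was not tested either.

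The largest decreases were those of the alternative isoforms. Ndufa4l2 was at 18.0 to 419 CPM (median 213) in MALP-like and 84.2 to 867 CPM (median 523) in LMP-like cells, and fell in 16 of 16 pools with a log2 fold change of -1.73 ± 0.18 (adjusted p = 1.31e-08). Cox4i2 was at 15.3 to 120.4 CPM (median 58.6) against 50 to 355 CPM (median 259) and changed by -2.05 ± 0.13 (adjusted p = 5.30e-12). The ranges of both genes overlapped between the classes. Ndufa4, the counterpart of Ndufa4l2, was at 597 to 1092 CPM (median 880.2) against 339 to 703 CPM (median 525) and rose by 0.49 ± 0.05 (adjusted p = 1.27e-08). Cox6b2 changed by -0.84 ± 0.11 (adjusted p = 6.76e-07). Atp5g2 was the only member without overlap (1.25% of those tested, against 10.8% of all genes), at 443 to 581 CPM (median 502) against 656 to 796 CPM (median 705) (-0.73 ± 0.04, adjusted p = 1.46e-13), while Atp5g1 changed by -0.39 ± 0.04 (adjusted p = 3.86e-09) and Atp5g3 rose by 0.17 ± 0.04 (adjusted p = 0.00194).

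Further increases were those of Atp5s, named as coupling factor B of ATP synthase (0.59 ± 0.09, adjusted p = 5.48e-06), and Ndufb3, of the membrane arm of complex I (0.29 ± 0.04, adjusted p = 5.80e-07). In complex IV, Cox7a2l (-0.46 ± 0.05, adjusted p = 3.65e-08) and Cox6a1 (-0.36 ± 0.04, adjusted p = 1.39e-07) fell, whereas Cox4i1 (-0.17 ± 0.04, adjusted p = 7.96e-04), Cox6b1 (-0.13 ± 0.04, adjusted p = 0.00349) and Cox7a2 (-0.21 ± 0.04, adjusted p = 1.35e-04) were lower with TMM and not without it. Cox8a (-0.02 ± 0.04, adjusted p = 0.664) and Cox7a1 (-0.48 ± 0.23, adjusted p = 0.0623) were not called. Of the regulators of mitochondrial biogenesis 6 of 14 were higher and 4 lower. Ppargc1a, the coactivator PGC-1alpha, was at a mean of 8.41 CPM in MALP-like and 0.388 CPM in LMP-like cells (log2 fold change 4.05 ± 0.30), and Ppargc1b had a log2 fold change of 1.16 ± 0.16. Both regulators passed the filter on low counts only through the MALP-like pools where they were high, so they are described without a test, although the count of higher regulators includes them. Hypoxia-inducible factor targets were lower for 17 of 19 genes and higher for 0, and TCA cycle genes were higher for 5 of 13 and lower for 4. The 19 targets include Car9, which passed the filter only through the LMP-like pools.

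Macrophage-like cells were compared with LMP-like cells in 16 pools, as the blood-lineage class present in every pool. Median depth over all pools was 4583 UMIs in macrophage-like and 16695 in LMP-like cells, and the part of depth was not tested. Members were mostly lower. Of 81 tested, 13 were higher (16% against 41.5% of 11939 genes) and 49 lower (60.5% against 43.5%), beside 85.1% of all genes called in either direction, with a median log2 fold change of -0.18 against -0.03, and 3.70% of the members did not overlap, against 34.5% of all genes. Without pools 1 and 2, 13 members were higher and 57 lower, with a median log2 fold change of -0.25. Over all 16 pools the decrease was most frequent in complex I, with 25 of 36 lower and 5 higher, followed by complex V with 10 of 16 and 2, complex IV with 8 of 15 and 4, and complex III with 4 of 8 and 1. In complex II, Sdha was higher and the other three members were not called. Sdha, the flavoprotein that oxidizes succinate, was at 87.7 to 134 CPM (median 105) in macrophage-like and 51.9 to 91.1 CPM (median 76.8) in LMP-like cells, with no overlap after scaling (0.62 ± 0.04, adjusted p = 5.62e-12).

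Cox7a2l (0.55 ± 0.05, adjusted p = 2.23e-10) and Cox4i1 (0.45 ± 0.04, adjusted p = 2.32e-10) were also higher. Cox6a2, which the count of higher members includes, had a log2 fold change of 2.65 ± 0.31, at 1.19 to 33.2 CPM (median 3.96) against 0.151 to 3.36 CPM (median 0.910). Ndufs4, an accessory subunit of the peripheral arm of complex I named after its values were seen, was at 58.7 to 87.5 CPM (median 71.9) against 154 to 254 CPM (median 207), without overlap (-1.36 ± 0.07, adjusted p = 9.42e-15). Cox6b2 likewise did not overlap (-2.09 ± 0.12, adjusted p = 2.78e-13). Ndufa4l2 was at 2.29 to 143 CPM (median 61.6) in macrophage-like cells, with a log2 fold change of -3.13 ± 0.21 (adjusted p = 4.87e-12), and Cox4i2 at 2.15 to 63.4 CPM (median 22.8), with -3.12 ± 0.16 (adjusted p = 4.88e-14). In T-cell-like cells, taken as a class that should lack both genes, Cox4i2 was at 0, 19.0, 8.81 and 11.2 CPM in pools 5, 6, 8 and 14, against 47.1, 15.8, 15.1 and 10.7 CPM in macrophage-like cells, which were below that background in pools 6 and 14. Ndufa4l2 was at 5.59, 19.0, 54.6 and 45.8 CPM in T-cell-like cells of the same pools, where macrophage-like cells held 85.6, 34.2, 32.8 and 44.0 CPM, at median depths of 4264 and 4583 UMIs. In pools 8 and 14 the macrophage-like level was below that background, and in pools 1 and 2, where stromal Ndufa4l2 was low, it was 2.29 and 5.64 CPM. Beside the members, 31 of 45 assembly factors and 54 mitochondrial ribosomal proteins were lower, whereas 11 of 13 mitochondrially encoded genes were higher and 0 lower (mt-Nd3 0.79 ± 0.05, adjusted p = 1.70e-12). The 45 assembly factors include Lyrm7 and Taco1, which passed the filter on low counts only through the LMP-like pools.

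Osteoclast-like cells were gated on markers of the lineage that forms the bone-resorbing osteoclasts and were compared with macrophage-like cells of the same pools. Only pools 1, 2, 9 and 13 held at least 20 osteoclast-like cells (152, 42, 20 and 33 cells). In this comparison nearly the whole respiratory chain rose together. Of 79 members tested, 77 were higher and 0 lower (97.5% against 11.8% of 8902 genes higher and 12.4% lower, 24.2% in either direction), with a median log2 fold change of 0.98 against -0.01. All tested members of complex I (36), complex II (4), complex III (8), complex IV (14) and complex V (15) were higher, and 62 members (78.5%) did not overlap between classes, against 23.3% of all genes. The members not called were Ndufa4l2 (0.09 ± 0.28, adjusted p = 0.873) and Cox4i2 (0.08 ± 0.40, adjusted p = 0.93), both with low counts. In pools 1, 2, 9 and 13 Ndufa4l2 was at 4.91, 2.19, 60 and 138 CPM in osteoclast-like and 2.29, 5.64, 72.5 and 105 CPM in macrophage-like cells. Cox4i2 had 8, 0, 6 and 12 UMIs in osteoclast-like cells of these pools. Neither class alone met the filter on low counts for these genes, so no conclusion is drawn on whether they rose. Leaving out 1 pool at a time, 72 to 75 members stayed higher and 0 lower.

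In pools 1, 2, 9 and 13 in that order, Atp5b, the catalytic beta subunit (chr10:128083273-128090391, plus strand), was at 1258, 1249, 1375 and 1290 CPM in osteoclast-like cells and at 485, 469, 381 and 391 CPM in macrophage-like cells. Each pool thus showed a clear increase of similar size (log2 fold change 1.53 ± 0.12, adjusted p = 3.98e-07). Ndufa4 was at 1295, 1100, 1365 and 952 CPM against 517, 485, 291 and 344 CPM (1.49 ± 0.15, adjusted p = 4.61e-06). Uqcr10, a small subunit of complex III, was at 929, 984, 1125 and 557 CPM against 368, 419.6, 262 and 251 CPM (1.40 ± 0.15, adjusted p = 7.06e-06), with the smallest level in pool 13 but no overlap. For complex II, Sdhb was at 314, 287, 349.9 and 314 CPM against 131, 122, 112 and 119 CPM (1.32 ± 0.13, adjusted p = 3.04e-06).

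Complex IV included the widely expressed Cox4i1 (0.75 ± 0.11, adjusted p = 1.64e-04), Cox6b1 (0.76 ± 0.12, adjusted p = 2.04e-04), Cox7a2 (0.91 ± 0.13, adjusted p = 8.52e-05) and Cox8a (1.06 ± 0.12, adjusted p = 8.11e-06), and increases of Cox6a1 (0.52 ± 0.13, adjusted p = 0.00728) and Cox7a2l (0.47 ± 0.13, adjusted p = 0.0149). The muscle isoforms were at very low levels. Cox6a2 was at 21.3, 35.0, 0 and 9.52 CPM in osteoclast-like cells, from 26, 16, 0 and 2 UMIs, with a log2 fold change of 2.43 ± 0.57 that is given without a test although the count above includes it. Cox7a1 was at 14.7, 37.2, 25 and 4.76 CPM (1.54 ± 0.40, adjusted p = 0.00965) and its call was lost without pool 2 (1.07, adjusted p = 0.169). Cox7a2l was no longer called without pool 1 or without pool 2. Of the c-subunit genes, Atp5g1 (1.22 ± 0.16, adjusted p = 5.53e-05) and Atp5g3 (1.17 ± 0.15, adjusted p = 2.71e-05) were higher, and so was Atp5g2 (0.37 ± 0.12, adjusted p = 0.0359), whose call was lost on leaving out any 1 of the 4 pools.

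The share of the members rose from 2.38%, 2.38%, 1.83% and 2.00% in macrophage-like cells to 4.45%, 4.42%, 4.58% and 3.74% in osteoclast-like cells of pools 1, 2, 9 and 13. Every complex was higher in 4 of 4 pools. The mitochondrially encoded share went from 4.61% ± 0.00861 to 6.00% ± 0.712 in the same pools, and there were 0.727 ± 0.132 member UMIs per mitochondrial UMI in osteoclast-like and 0.466 ± 0.0610 in macrophage-like cells. This ratio depended on the mitochondrial limit. Without it 529 osteoclast-like cells were kept over all pools, and 7 pools held at least 20 of them. In these 7 pools the member share was 4.48% ± 0.613, the mitochondrial share 11.3% ± 2.03 and the ratio 0.406 ± 0.0862. Macrophage-like cells in 16 pools then had a member share of 2.02% ± 0.178, a mitochondrial share of 4.83% ± 0.641 and a ratio of 0.426 ± 0.0759, so that the difference in the ratio was smaller than the SD between pools while the difference in the member share stayed. Over all pools osteoclast-like cells had a median depth of 8599 UMIs, against 4583 in macrophage-like cells. In pools 1, 2, 9 and 13 the medians were 5944.5, 9591.5, 8985 and 3257 against 7330.5, 5496, 4419 and 4336 UMIs. Osteoclast-like cells were thus deeper in pools 2 and 9 and shallower in pools 1 and 13, and the part of depth was not tested. With 4 pools, genes not called here may still differ.

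Genes around the chain were also higher in part. Of the TCA cycle enzymes 11 of 13 were higher and 0 lower, led by Idh3a (1.65 ± 0.16, adjusted p = 3.25e-06) and Mdh2 (1.61 ± 0.16, adjusted p = 3.73e-06), and 4 of the 5 respiratory chain genes outside the pattern were higher and 0 lower (Cycs 1.64 ± 0.18, adjusted p = 8.57e-06; Cyc1 1.61 ± 0.14, adjusted p = 7.48e-07). Mitochondrial ribosomal proteins were higher for 27 genes and lower for 0, assembly factors for 9 of 38 and 0, and mitochondrially encoded genes for 5 and 0. Among the regulators, Ppargc1b, the coactivator PGC-1beta, was at a mean of 68.2 CPM against 1.99 CPM (log2 fold change 4.98 ± 0.30), and Gabpa, a subunit of the ETS factor GABP, had a log2 fold change of -1.01 ± 0.35. Each passed the filter only through the class where it was higher and is described without a test. In contrast, cytosolic ribosomal proteins were higher for 0 and lower for 3.

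**Figure D5:**
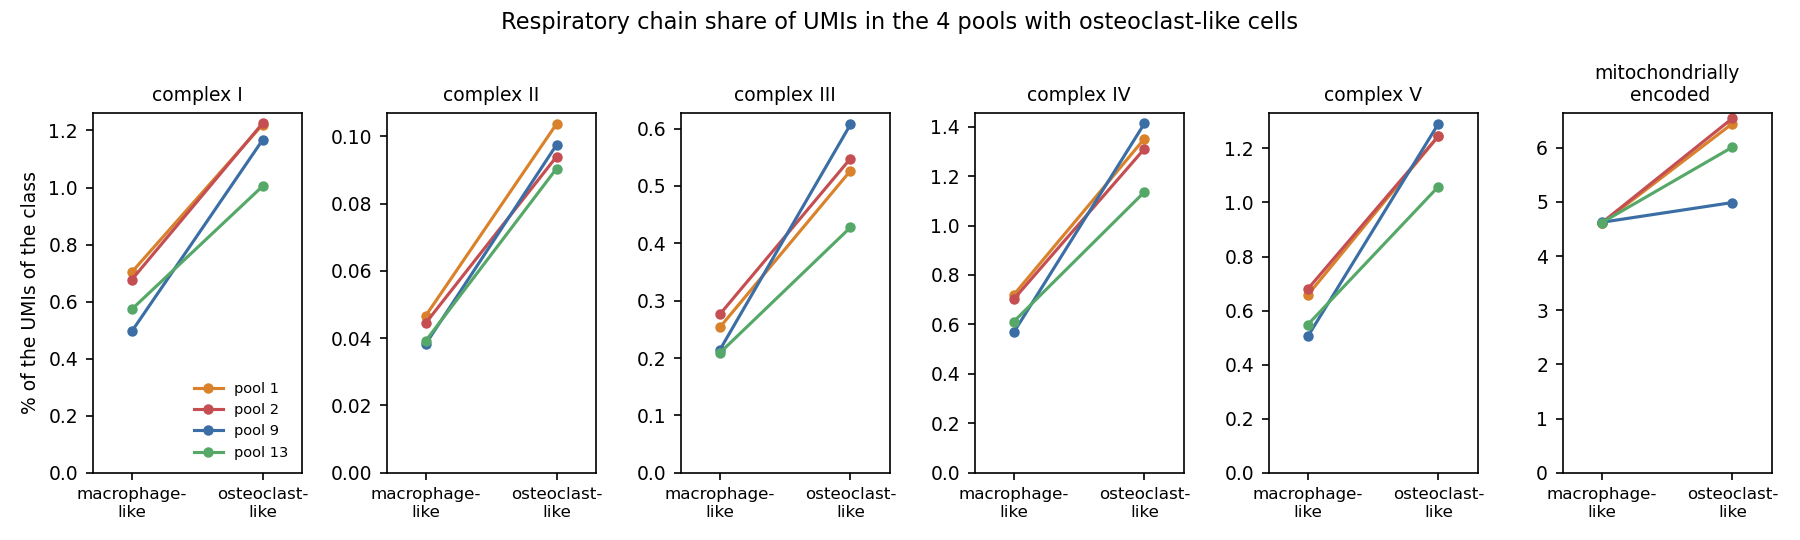
Share of UMIs (%) of complexes I to V and of the mitochondrially encoded genes in macrophage-like and osteoclast-like cells of pools 1, 2, 9 and 13, with a line joining both classes of each pool. Complex I goes from between 0.496% and 0.704% to between 1.00% and 1.22%, and every line rises, with the mitochondrially encoded share of pool 9 rising least (to 4.99%).

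The isoform pairs can be followed over all classes as the share of a pair's UMIs held by the alternative form. Ndufa4l2 held 47.7% ± 17.2 of the UMIs of Ndufa4l2 and Ndufa4 in LMP-like cells, 18.9% ± 10.9 in MALP-like, 70.9% ± 14.7 in osteoblast-like and 76.3% ± 17.6 in Ocy-like cells (SD, n = 16), and 87.2% ± 2.29 in hypoxia-high (n = 14) against 42.3% ± 14.3 in hypoxia-low cells (n = 16). In osteoclast-like cells it held 4.36% ± 5.84 (n = 4), in macrophage-like cells 15% ± 8.53 (n = 16), in T-cell-like cells 8.78% ± 5.37 (n = 4), and in the 1 pool with enough endothelial-like cells 42.6%. Cox4i2 held 16.7% ± 6.50 of Cox4i2 and Cox4i1 in LMP-like, 5.19% ± 2.23 in MALP-like, 20.6% ± 6.69 in osteoblast-like and 25.4% ± 8.24 in Ocy-like cells, and 30.6% ± 5.22 against 9.30% ± 3.41 in hypoxia-high and hypoxia-low cells. Among the MALP-like, LMP-like, osteoblast-like and Ocy-like classes, the mean share in both pairs was lowest in MALP-like, then LMP-like, then osteoblast-like and highest in Ocy-like cells. Ocy-like cells were above osteoblast-like cells in 14 of 16 pools for either pair, and osteoblast-like above LMP-like cells in 16 of 16 for Ndufa4l2 and 14 of 16 for Cox4i2, although the ranges over pools overlapped at each of these steps. For Cox7a1 and Cox7a2 the order was another one, with Cox7a1 at 5.17% ± 2.63 of the pair in LMP-like, 2.49% ± 0.920 in hypoxia-high and 0.532% ± 0.308 in hypoxia-low cells.

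The alternative isoforms also varied most between pools. Over the 76 members with a mean of at least 50 CPM in LMP-like cells, the SD between pools of log2(CPM + 1) ranged from 0.07 to 0.94, with a median of 0.21. The 5 most variable were Ndufa4l2, Cox4i2, Atp5k, Ndufa3 and Ndufa5. Ndufa4l2 ranged from 84.2 CPM in pool 2 to 867 CPM in pool 3, with 135 CPM in pool 1, and Cox4i2 from 50 CPM in pool 2 to 355 CPM in pool 5, with 70.2 CPM in pool 1. Atp5k, the e subunit of ATP synthase, went the other way, from 143 CPM in pool 10 to 492 CPM in pool 2. Ndufa3 (126 to 308 CPM) and Ndufa5 (119 to 261 CPM), both accessory subunits of complex I, were also highest in pool 2. In osteoblast-like cells the levels of Ndufa4l2 in pools 1 and 2 were 395 and 149 CPM, in Ocy-like cells 198 and 110 CPM. These are the pools with 11 and 2 hypoxia-high cells. Each pool holds other mice, so mouse and pool cannot be told apart here.

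Some values are uncertain because of near-identical sequences. The c-subunit genes Atp5g1, Atp5g2 and Atp5g3 share part of their coding sequence, and many members have processed pseudogene copies in the mouse genome. How reads that fit more than 1 such copy were divided was not examined here.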

How the data were processed

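Single-cell suspensions of BMSC-OBs were sequenced on the 10x 3′ platform by the authors. Per the labels, alignment was to mm10 and Cell Ranger 5.0.0 made the matrices. The deposited values are UMI counts per gene and barcode, not normalized, and precede the authors' limits on genes, mitochondrial and ribosomal UMIs, doublet calling and demultiplexing. With 3460 to 9429 barcodes per pool they do not hold every barcode, and how barcodes were called as cells was not examined. Coordinates are those of GRCm38, matched by gene identifier for all 85 members; the annotation release used for counting was not given in the sources used here. Each droplet was counted once, from the first run, and no per-sample column was left unused.

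Cells with 400 to 6200 genes and at most 10% mitochondrial, 20% Rpl and 15% Rps UMIs were kept. A class needed a mean marker z of at least 0.5, a lead of 0.25 and 3 detected markers. Hypoxia-high and hypoxia-low cells scored at least 0.3 and at most -0.3. Doublets were treated by leaving out mixed cells, and without the 5% deepest cells as an alternative. UMIs were summed per pool and class (at least 20 cells) and tested by the quasi-likelihood method of edgeR 4.0.16 under R 4.3.3 (TMM, low counts removed by filterByExpr, pool as a block, Benjamini-Hochberg over all genes). Both classes of a pool come from the same droplets and mice, and same-pool deviations correlated in every pool of every comparison (lowest 0.158, against medians of -0.141 to -0.022 between different pools). On simulated data with 200 genes changed by 1 on the log2 scale, recovery was 96% to 99% in 5 comparisons and 30% in osteoclast-like against macrophage-like cells. The simulated counts had a single fixed dispersion for all genes and no differences between pools, so these values need not hold for the real counts. Shares were given as mean ± SD over pools, without a test.

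Alternatives were DESeq2 1.42.0, library size without TMM, no filter on low counts, the second run, no block, stricter gates, no mitochondrial limit, left-out pools and, chosen after seeing the data, no upper gene limit and pools 1 and 2 left out. The members, the gene lists and the rule for named genes were chosen with earlier results of these data known. That rule names the isoform genes of complexes IV and V, the 3 members with the largest called change per direction and comparison that moved alike in at least 80% of pools, the 5 most variable members in LMP-like cells, and the 2 largest called changes of each other list. Exceptions are marked, and 1 gene of these other lists is not reported here. Promoters are from RefSeq.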

Additional observations from a re-analysis of the deposited data

How the results depend on the processing

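Among the alternative values of the counts of called members and of the members' share of UMIs, 179 stayed within 1.5 times, or within the spread between pools, and 12 moved. Without TMM, 12 members were higher and 64 lower in osteoblast-like against LMP-like cells, 53 higher and 9 lower in MALP-like against LMP-like cells, and 7 higher in hypoxia-high cells, because this scaling shifts all fold changes by a constant within a comparison. Leaving out the pool as a block, against the pairing the design gives, reduced the calls to 35 higher in osteoblast-like cells, 9 higher and 26 lower in hypoxia-high cells, 1 higher and 21 lower in Ocy-like cells, and 6 higher and 24 lower in MALP-like cells, and no other count moved by over 1.5 times. The log2 fold changes that reversed all did so without TMM. In osteoblast-like cells these were Atp5g1 (-0.13), Atp5g2 (-0.30), Atp5g3 (-0.19), Cox4i1 (-0.22), Cox6b1 (-0.24), Cox7a2l (-0.34) and Cox8a (-0.31), in hypoxia-high cells Cox4i1 (-0.10), Cox6a1 (-0.049), Cox7a2 (-0.14) and Cox8a (-0.072), and in MALP-like cells Cox4i1 (0.064), Cox6b1 (0.10), Cox7a2 (0.022) and Cox8a (0.21). Among the alternative values of named genes, 1006 kept their direction and their side of the threshold, 46 lost and 22 gained a call and 15 reversed. Leaving out 1 of the 4 pools with osteoclast-like cells gave 72 to 75 members higher. Without the mitochondrial limit, the mitochondrially encoded share moved by more than the SD between pools in osteoclast-like (11.3%), macrophage-like (4.83%), MALP-like (4.87%), T-cell-like (5.28%) and ungated cells (3.93%), and the members per mitochondrial UMI in osteoclast-like cells went from 0.727 to 0.406. The osteoclast-like comparison rests on 4 pools with as few as 20 cells.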

Other observations

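Granulocyte-like cells, which enter none of the tests, held Cox6b2, known from testis, at a median of 31.8 CPM (lowest 0, highest 52.9, n = 12 pools, from 264 UMIs in all). There it made up 8.12% ± 4.49 (SD) of the UMIs of Cox6b2 and Cox6b1 together, against 4.26% ± 1.05 in LMP-like cells (n = 16 pools) and 4.52% ± 3.20 in monocyte-like cells (n = 6 pools). The ranges over pools overlapped, and the difference was not tested.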
